A study of Mus musculus with 19 samples.

Results

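The miR-26 family of the mouse is represented in these data by 5 mature names, miR-26a-5p, miR-26b-5p, miR-26a-1-3p, miR-26a-2-3p and miR-26b-3p. They are all the names beginning with miR-26a or miR-26b among the 1148 miRNA names counted in each library, taken with both arms and both numbered copies of miR-26a. Small RNA was sequenced from the microdissected, snap-frozen CA1 subregion of the hippocampus of wild-type mice, whose strain the labels write as C57B/6JRj. The young vehicle group (YoungVeh, 8 libraries) came from animals aged 3 months, and the aged vehicle group (OldVeh, 5 libraries) from animals aged 20 months. Vehicle was drinking water with 18 g per L of cyclodextrin. The aged SAHA group (OldSAHA, 6 libraries) came from animals aged 20 months whose water held the same cyclodextrin and 0.67 g per L of SAHA, the histone deacetylase inhibitor vorinostat. Treatment by mouth lasted 4 weeks in the aged animals. No young group received SAHA, so age and SAHA could be compared only along the path from young vehicle to aged vehicle to aged SAHA. Sex and sequencing batch are not in the labels used here, and nothing there says whether each library is a separate animal. If some are not, the p-values measure only the spread between these samples, which may be technical.

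Members of this family are conserved and abundant in many tissues, and each is cut from a hairpin that lies in a gene for a small phosphatase of the C-terminal domain of RNA polymerase II. These phosphatases, Ctdspl, Ctdsp2 and Ctdsp1, take part with the factor REST in keeping neuronal genes silent in cells that are not neurons. The seed of the guide strand pairs with target mRNAs, and a reported target of the 5p strand is Ezh2, a histone methyltransferase. In hippocampal neurons miR-26a has been studied in the maintenance of long-term potentiation.

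The mature sequences are shown first because the 5 names differ by few bases, which bears on how their reads can be told apart. They are from RefSeq on the GRCm38 build, in which all 5 names were found, and are written 5′ to 3′ with the seed (bases 2 to 8) in capitals.
miR-26a-5p: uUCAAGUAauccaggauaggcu
miR-26b-5p: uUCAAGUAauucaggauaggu
miR-26a-1-3p: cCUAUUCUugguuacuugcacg
miR-26a-2-3p: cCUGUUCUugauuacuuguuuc
miR-26b-3p: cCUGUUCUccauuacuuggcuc
The guide strands miR-26a-5p and miR-26b-5p shared the seed UCAAGUA, which no other of the 1679 mature mouse names in the RefSeq table had. Counted from 1 at the 5′ end, they differed over their 21 aligned bases at 2 positions outside the seed, C11U and C21U, given as the base of miR-26a-5p, the position and the base of miR-26b-5p. miR-26a-5p is 22 bases long and miR-26b-5p 21 bases. The 3p strands split by seed. miR-26a-2-3p and miR-26b-3p shared CUGUUCU and differed at 4 positions outside it (U9C, G10C, U19G and U20C), while miR-26a-1-3p differed from miR-26a-2-3p at 6 positions, of which A4G lies in the seed. The seed CUGUUCU also belonged to miR-7039-3p and miR-6932-3p, neither of which is among the names counted in these libraries. The sources used here do not say how a read with a mismatch, or one that fits several loci, was assigned. Counts of names this close are therefore uncertain to the extent that reads were placed under the wrong one.

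The hairpins show where each strand comes from, with the mature arms in capitals and the rest in lower case.
Mir26a-1: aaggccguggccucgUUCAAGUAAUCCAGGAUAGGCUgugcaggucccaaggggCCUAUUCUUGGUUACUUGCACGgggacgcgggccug
Mir26a-2: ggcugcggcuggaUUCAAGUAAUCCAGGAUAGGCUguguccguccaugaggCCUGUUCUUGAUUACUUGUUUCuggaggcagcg
Mir26b: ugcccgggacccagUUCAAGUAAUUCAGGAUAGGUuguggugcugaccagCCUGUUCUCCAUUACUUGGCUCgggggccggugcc
Mir26a-1 lies at chr9:119031796-119031885 on the plus strand, within an intron of all 3 GENCODE M21 transcripts of Ctdspl that span it. Mir26b lies at chr1:74394310-74394394 on the plus strand, within an intron of both spanning transcripts of Ctdsp1. Mir26a-2 lies at chr10:126995530-126995613 on the plus strand within Ctdsp2, and overlapped an exon in 2 of the 3 transcripts that span it. Each host gene lies on the same strand as its hairpin. The 5p arm is identical in Mir26a-1 and Mir26a-2, so miR-26a-5p counts cannot be divided between these 2 loci, whereas the 3p arms are counted under separate names. If a read that fits both loci was counted at each, miR-26a-5p would be too high against names from a single locus. Some names had nearly the same mean level, such as miR-486-5p and miR-3107-5p (2845 and 2833 CPM). Whether reads were counted more than once was not tested.

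Depth, the total of miRNA counts, was 3585489 to 6808281 in young vehicle, 4642434 to 5249168 in aged vehicle and 4211365 to 5410804 in aged SAHA. One library agreed less with its group than any other: aged SAHA 1 had a median correlation of 0.989 with the other libraries of its group (log2 CPM of all tested miRNAs), against 0.992 to 0.996 for the other 18. All 22 marker miRNAs listed for neurons, oligodendrocytes, microglia and myeloid cells, erythrocytes, endothelial and mural cells and choroid plexus were counted in every library. The neuronal miR-9-5p and miR-128-3p averaged 38684 and 31834 CPM (counts per 1 M counts of the library). In such bulk tissue, fewer cells of a type and less RNA per cell cannot be told apart. The scaling of library sizes was by TMM (the trimmed mean of M-values), and a level below is always CPM or a percent of all miRNA counts of the library. Mature miRNAs are of nearly the same length, so levels were compared without a length correction. Adapter ligation can favour some small RNA ends over others, and its part in differences between names was not tested.

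miR-26a-5p, the main guide strand of the family, held 7.59% ± 0.534 of all miRNA counts (SD, n = 19) and stood at place 3 in every one of the 19 libraries. Reads that fit both Mir26a-1 and Mir26a-2 may have been counted at each locus, which would raise its share. By these counts its rank had no close neighbour. miR-26a-5p was below miR-127-3p (13.8%) and miR-181a-5p (13.6%) in all 19, and above miR-22-3p (4.64%), miR-9-5p (3.86%) and let-7f-5p (3.57%) in all 19. In the young vehicle libraries its level was lowest at 67155 CPM, with a median of 74676 and a highest value of 83336. Aged vehicle libraries 1 to 5 had 74647, 77921, 78502, 75689 and 72393 CPM. In the aged SAHA libraries the lowest value was 68231, the median 80854 and the highest 81925 CPM. The 3 groups overlapped: every aged vehicle library lay inside the range of the young ones, and so did all 6 aged SAHA libraries. Aged SAHA 3 alone lay below the aged vehicle libraries, and 4 of the 6 aged SAHA libraries lay above all 5 of them.

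miR-26b-5p, the guide strand from the Ctdsp1 intron, held 0.234% ± 0.0274 of counts (SD, n = 19), with a mean 32.5 times lower than that of miR-26a-5p in CPM. That ratio carries the same limit on reads that fit both miR-26a loci. By mean share miR-26b-5p stood at place 54, and its place in single libraries ran from 46 to 65. Unlike miR-26a-5p it was not separated from its neighbours beyond their spread. It was above miR-434-5p (0.250%), miR-21-5p (0.246%) and miR-138-5p (0.242%) in 8, 11 and 7 of 19 libraries, and above let-7e-5p (0.218%), miR-192-5p (0.213%) and let-7b-5p (0.211%) in 12, 16 and 15. In the young vehicle libraries it ran from 1701 CPM, in young vehicle 6, through a median of 2169 to 2556. Aged vehicle libraries 1 to 5 had 2349, 2479, 2234, 2315 and 2323 CPM, which is the tightest group. In the aged SAHA libraries the lowest was 2297, the median 2449 and the highest, in aged SAHA 1, was 2989 CPM. Aged SAHA 1, 3 and 6 (2989, 2679 and 2575 CPM) lay above all 13 vehicle libraries, and the other 3 lay among them, so that the groups again overlapped.

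**Figure D1:**
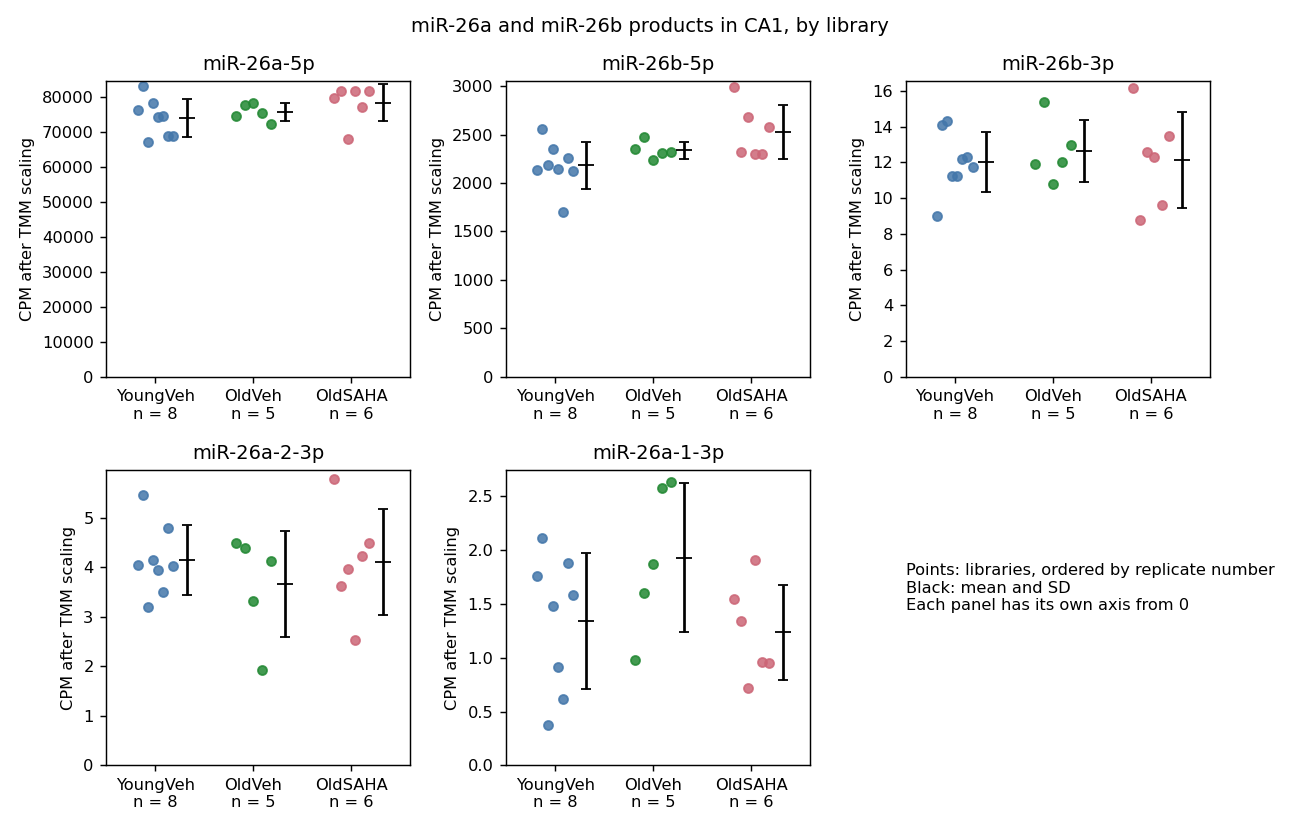
Level of each of the 5 miR-26 names in CPM after TMM scaling (vertical axis, from 0 in each panel) for every library of YoungVeh (n = 8), OldVeh (n = 5) and OldSAHA (n = 6), with the mean and SD in black. The groups overlap in every panel. The lowest miR-26b-5p point is YoungVeh 6 at 1701 CPM and the highest is OldSAHA 1 at 2989 CPM.

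The 3p strands, the partners that are mostly degraded after the hairpin is cut, made up 0.0227% of all miR-26 counts, against 97.0% for miR-26a-5p and 2.99% for miR-26b-5p. miR-26b-3p was the most abundant of them although its own guide strand was the scarcer one. It averaged 12.0 ± 1.70 CPM (SD, n = 8) in young vehicle, where it ran from 8.99 through a median of 12.0 to 14.3 CPM. Aged vehicle libraries 1 to 5 had 11.9, 15.4, 10.8, 12.0 and 13.0 CPM. The aged SAHA libraries ran from 8.79 through a median of 12.4 to 16.2 CPM, the highest again being aged SAHA 1. Both vehicle groups lay within the range of the aged SAHA libraries.

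miR-26a-2-3p, from the Ctdsp2 locus, was lower than miR-26b-3p in all 19 libraries and their ranges did not meet (at most 5.78 against at least 8.79 CPM). It ran from 3.21 through a median of 4.04 to 5.46 CPM in young vehicle. Aged vehicle libraries 1 to 5 had 4.50, 4.39, 3.32, 1.93 and 4.14 CPM. The aged SAHA libraries ran from 2.54 through a median of 4.09 to 5.78 CPM, and the 3 groups overlapped.

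miR-26a-1-3p, from the Ctdspl locus, was the scarcest, with 2 to 14 counts per library. It ran from 0.377 through a median of 1.53 to 2.11 CPM in young vehicle. Aged vehicle libraries 1 to 5 had 0.978, 1.60, 1.87, 2.57 and 2.63 CPM. The aged SAHA libraries ran from 0.720 through a median of 1.15 to 1.90 CPM. Aged vehicle 4 and 5 were the highest of all 19, and the groups overlapped. It was below miR-26a-2-3p in 18 of 19 libraries, the exception being aged vehicle 4 with 12 against 9 counts, and the ranges of these 2 strands overlapped.

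Between libraries, the 2 guide strands differed in how much they varied. The coefficient of variation (CV, the SD as a percent of the mean) of miR-26a-5p CPM over the 19 libraries was 6.58%, where counting error alone would give 0.161%. Among the 78 miRNAs that averaged at least 1000 CPM it was the 12th lowest, and their median was 10.8%. The CV of miR-26b-5p was 11.2%, where counting alone would give 0.920%, and it was the 42nd lowest of the 78. Set beside miRNAs that are often used as references for normalisation, miR-26a-5p was close to miR-103-3p (6.39%) and miR-186-5p (6.51%), and miR-26b-5p to miR-92a-3p (11.2%). With the group means removed, the CVs were 6.42% for miR-26a-5p and 9.75% for miR-26b-5p. The 3p strands varied more, and counting error alone would give values closer to theirs. The CV was 16.1% for miR-26b-3p against 12.7% from counting, 22.5% for miR-26a-2-3p against 22.1%, and 43.3% for miR-26a-1-3p against 36.8%.

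**Figure D2:**
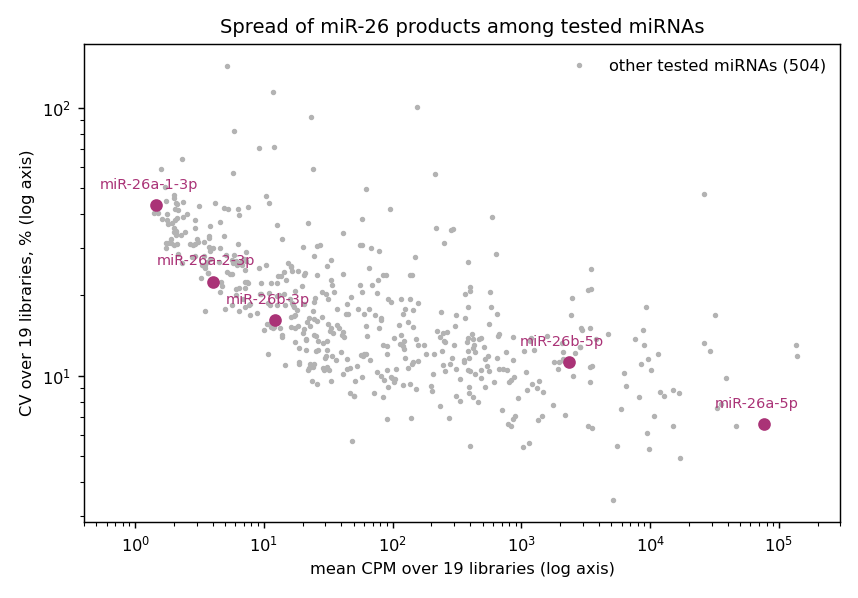
CV of CPM over the 19 libraries in percent (vertical, log axis) against mean CPM (horizontal, log axis) for each of the 509 tested miRNAs, with the miR-26 names in purple. miR-26a-5p lies near the lower edge at its level with 6.58%, miR-26b-5p lies at 11.2%, and the 3p strands lie among other scarce miRNAs.

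The first comparison, aged vehicle against young vehicle, asks how the family differed with age without drug. No miR-26 name was called, by edgeR's quasi-likelihood test with Benjamini-Hochberg adjustment over all 509 tested miRNAs and a call at an adjusted p under 0.05. All 5 names passed the filter on low counts. Over all tested miRNAs, 2.16% were called (11 of 509). No miR-26 name had an unadjusted p under 0.05 either, as 15.7% of all tested miRNAs did, and DESeq2 and limma-voom also called none. miR-26a-5p averaged 75830 ± 2487 CPM (SD, n = 5) in aged vehicle and 74056 ± 5518 (n = 8) in young vehicle, a log2 fold change of 0.03 ± 0.06 (SE, edgeR adjusted p = 0.818). The 95% interval of that difference ran from -6.03% to 11.6%. miR-26b-5p averaged 2340 ± 88.6 CPM in aged vehicle and 2185 ± 243 in young vehicle, a log2 fold change of 0.10 ± 0.08 (edgeR adjusted p = 0.563, 95% interval -4.39% to 20.0%). It was 0.05 without young vehicle 6 and 0.06 with limma-voom, but 0.13 without young vehicle 2 and 0.13 when only library size was used for scaling. The 3p strands were measured less precisely. Their log2 fold changes were 0.07 ± 0.14 for miR-26b-3p, -0.17 ± 0.20 for miR-26a-2-3p and 0.51 ± 0.33 for miR-26a-1-3p, with edgeR adjusted p of 0.839, 0.736 and 0.439. For the last, the 95% interval on the log2 scale ran from -0.17 to 1.19.

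The second comparison, aged SAHA against aged vehicle, asks what the drug changed in aged animals. Again 0 of the 5 names were called with edgeR, and none had an unadjusted p under 0.05, against 4.32% of tested miRNAs called (22 of 509) and 19.4% with such an unadjusted p. DESeq2 and limma-voom called none of them. miR-26a-5p averaged 78531 ± 5346 CPM (SD, n = 6) in aged SAHA against 75830 ± 2487 in aged vehicle, a log2 fold change of 0.05 ± 0.06 (SE, edgeR adjusted p = 0.717), with a 95% interval of -5.47% to 13.5%. miR-26b-5p averaged 2527 ± 277 CPM against 2340 ± 88.6, a log2 fold change of 0.11 ± 0.08 (edgeR adjusted p = 0.533), with a 95% interval of -4.31% to 21.9%. Without aged SAHA 1 it was 0.06, as it was with limma-voom, but it was 0.14 without aged SAHA 4 and with a block for replicate number. Of the 3p strands, miR-26a-1-3p had the largest difference, -0.64 ± 0.36 on the log2 scale, with an edgeR adjusted p of 0.362 and a 95% interval of -1.38 to 0.11. miR-26a-2-3p differed by 0.16 ± 0.22 and miR-26b-3p by -0.06 ± 0.15, with edgeR adjusted p of 0.722 and 0.859.

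The third comparison, aged SAHA against young vehicle, differs in both age and drug and shares its libraries with the other 2, so its values are set beside them and are not further evidence. Of the 5 names, 0 were called, against 13.9% of tested miRNAs (71 of 509). miR-26b-5p came nearest, at place 78 of the 509 by p-value. Its log2 fold change was 0.21 ± 0.07 (SE), or 15.7% with a 95% interval of 3.90% to 28.8%, and the edgeR p was 0.0101 before and 0.0657 after adjustment. All 6 aged SAHA libraries lay above the young median, and 3 of the 6 lay above all 8 young libraries. It was the 1 name of the 5 with an unadjusted p under 0.05, a mark that 32.8% of all tested miRNAs reached in this comparison. Whether miR-26b-5p passed the threshold turned on the scaling. In edgeR its adjusted p was 0.0276 when only library size was used for scaling, and 0.0487 when DESeq2's size factors were. DESeq2, which changes both scaling and test, gave 0.0402. With TMM scaling kept, limma-voom did not call it either, with a log2 fold change of 0.12 and an adjusted p of 0.191. It also turned on single libraries. The edgeR adjusted p was 0.0319 without young vehicle 2, 0.0333 without aged SAHA 4 and 0.0442 without aged SAHA 5, while without aged SAHA 1 and young vehicle 6 together the log2 fold change was 0.11, with an adjusted p of 0.181. miR-26a-5p differed by 0.08 ± 0.06 (edgeR adjusted p = 0.303, 95% interval -2.23% to 15.0%). The 3p strands differed by 0.01 ± 0.14 (miR-26b-3p), -0.02 ± 0.19 (miR-26a-2-3p) and -0.13 ± 0.34 (miR-26a-1-3p), with edgeR adjusted p of 0.963, 0.970 and 0.819.

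**Figure D3:**
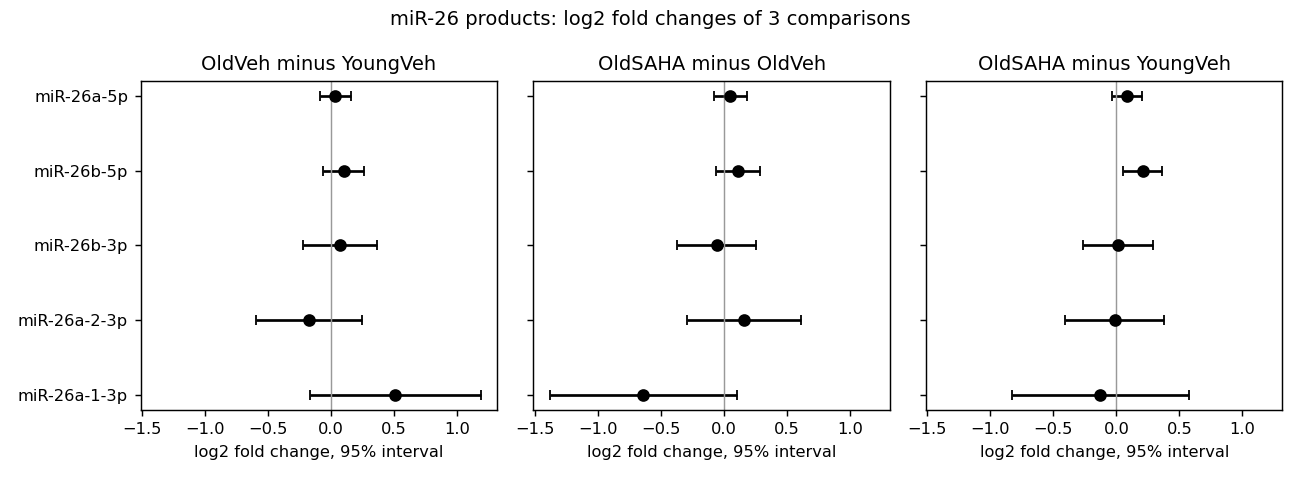
Log2 fold change with its 95% interval (horizontal axis) for the 5 miR-26 names in the 3 comparisons, from the edgeR fit on all 19 libraries. The intervals are narrow for the 5p strands and wide for miR-26a-1-3p, and miR-26b-5p in aged SAHA against young vehicle (0.21) is the 1 value whose unadjusted interval leaves out 0.

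In the order of the 3 comparisons above, the median log2 fold change over the 5 names was 0.07, 0.05 and 0.01, beside medians of -0.0030, -0.0077 and -0.03 over all 509 tested miRNAs. Positive fold changes numbered 4, 3 and 3 of 5, beside 250, 248 and 229 of 509. In no comparison did any of the 5 names have groups that did not overlap, as 3.14%, 4.91% and 3.54% of tested miRNAs did. As a share of all miRNA counts, without TMM scaling, both guide strands together came to 7.50% in young vehicle, 7.88% in aged vehicle and 8.22% in aged SAHA, with SDs of 0.514, 0.283 and 0.530.

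Ratios within a library do not depend on its scaling, and 4 of them were compared between groups. The tests were exact permutation tests, two-sided, and their 12 p-values were adjusted together. miR-26a-5p outnumbered miR-26b-5p by 34.2 ± 4.33 times in young vehicle (SD, n = 8, from 30.5 to 44.0 with a median of 33.0), 32.4 ± 1.61 times in aged vehicle (31.8, 31.4, 35.1, 32.7 and 31.2 in libraries 1 to 5) and 31.4 ± 4.35 times in aged SAHA (from 25.5 to 35.6 with a median of 32.7). Young vehicle 6 was highest, with 44.0, and aged SAHA 1 and 3 were lowest, with 26.7 and 25.5, below every vehicle library. The mean log2 ratio differed by -0.07 with age (exact permutation p = 0.474), by -0.06 with SAHA (p = 0.548) and by -0.13 between aged SAHA and young vehicle (p = 0.238), and the adjusted p were 0.730, 0.730 and 0.571.

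miR-26b-3p amounted to 0.559% of miR-26b-5p in young vehicle, 0.542% in aged vehicle and 0.481% in aged SAHA, with libraries between 0.383% and 0.721%. In the same order, the differences in mean log2 ratio were -0.03, -0.18 and -0.21 (exact permutation p = 0.782, 0.154 and 0.105, adjusted p = 0.937, 0.461 and 0.461). The ratio of miR-26a-1-3p to miR-26a-2-3p, which sets the Ctdspl locus beside the Ctdsp2 locus, had the largest shifts. It was higher in aged vehicle than in young vehicle by 0.80 on the log2 scale (exact permutation p = 0.0909, adjusted p = 0.461), with 3 of 5 aged vehicle libraries above all 8 young ones, and lower in aged SAHA than in aged vehicle by 0.77 (a difference of -0.77, exact permutation p = 0.149, adjusted p = 0.461). These ratios rest on few counts, and no difference passed the threshold. With 1 library left out the age difference ran from 0.48, without aged vehicle 4, to 1.10, without aged vehicle 1, and the SAHA difference from -1.07, without aged vehicle 1, to -0.45, without aged vehicle 4. With 5 counts added in place of 0.5 they were 0.52 and -0.52. Both 3p strands of miR-26a together came to 0.00733% ± 0.00136 of miR-26a-5p (SD, n = 19), with differences of 0.01, -0.12 and -0.11 in mean log2 ratio across the 3 comparisons (exact permutation p = 0.937, 0.418 and 0.497, adjusted p = 0.937, 0.730 and 0.730).

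**Figure D4:**
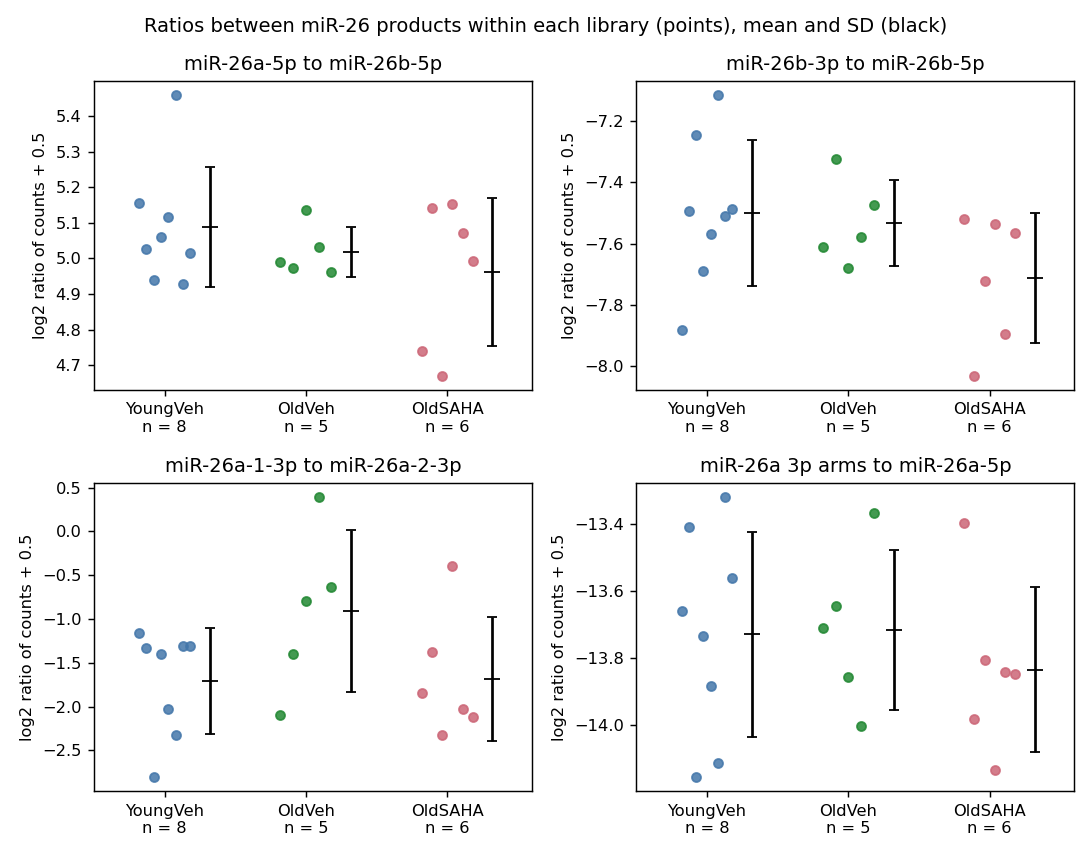
Log2 ratio of counts, each with 0.5 added, for 4 pairs of miR-26 strands (vertical axes) in every library of the 3 groups, with the mean and SD in black. YoungVeh 6 is highest for miR-26a-5p to miR-26b-5p (5.46), and 3 of 5 OldVeh libraries are above all YoungVeh libraries for miR-26a-1-3p to miR-26a-2-3p.

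The use of 1 arm was more extreme for miR-26a than for miR-26b. Among 74 hairpin families whose arms together averaged at least 1000 CPM, the minor arm held a median of 0.665% of both arms. For miR-26a it held 0.00719%, the second smallest after miR-101b (0.00175%), and for miR-26b it held 0.521%, at place 34. The copies of miR-26a were summed for this ranking.

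The miRNAs whose levels followed the guide strands most closely were taken by Spearman's rho of log2 CPM over the 19 libraries, which share depth and scaling, and are given as a description. For miR-26a-5p they were miR-299-5p (rho 0.74), let-7b-5p (0.68) and miR-181a-2-3p (0.67). For miR-26b-5p they were miR-10a-5p (0.82), miR-27a-3p (0.75) and miR-146a-5p (0.67). With group means removed, the same 6 values were 0.62, 0.62, 0.58, 0.74, 0.55 and 0.57. The 3 miRNAs closest to miR-26a-5p and the 3 closest to miR-26b-5p had no name in common. Between the guide strands themselves Pearson's r was 0.28 (permutation p = 0.249) and rho 0.42 (permutation p = 0.0735). Without young vehicle 3 and aged SAHA 3, the libraries farthest from the median of miR-26a-5p, r was 0.46. miR-26b-5p and its partner miR-26b-3p had r 0.44 (permutation p = 0.0585) and rho 0.51 (permutation p = 0.0276), and r was 0.45 without young vehicle 6 and aged SAHA 1. These are 2 of 14 relations examined, and the adjusted p were 0.387 and 0.205 for r and 0.172 for both rho.

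The other 12 relations set the guide strands beside the mean log2 CPM of each list of cell type markers. None of these relations passed the adjusted threshold. For miR-26b-5p the smallest p-values were with microglial and vascular markers. Its Pearson's r was 0.60 with the microglia and myeloid list (permutation p = 0.00967, adjusted p = 0.0677), with a rho of 0.59 (permutation p = 0.00947, adjusted p = 0.133), and 0.58 with the endothelial and mural list (permutation p = 0.00624, adjusted p = 0.0677), with a rho of 0.43 (permutation p = 0.0690, adjusted p = 0.172). Aged SAHA 1 and 3, in which miR-26b-5p was highest, stood 1.09 and 0.61 above the mean of all libraries in mean log2 CPM of the 3 microglia and myeloid markers, and 0.61 and 0.57 above it for the 4 endothelial and mural markers. Young vehicle 4 stood as high, at 0.61, for the endothelial and mural markers, with a miR-26b-5p level of 2353 CPM that lay among the vehicle libraries. Young vehicle 6, in which miR-26b-5p was lowest, stood at -0.11 and -0.35 for the same lists. Without aged SAHA 1 and 3 the r with microglia and myeloid markers was 0.24, so that relation rested on those libraries. It was 0.19 within young vehicle and 0.80 within aged SAHA. The r with endothelial and mural markers was 0.49 without young vehicle 4 and aged SAHA 1, and it was 0.64 within young vehicle and 0.86 within aged SAHA. Aged SAHA 3 was still in that 0.49, and the r without both aged SAHA 1 and 3 was not computed for this list. Within aged SAHA those libraries stood at 0.61 and 0.57 and all others at -0.25 to -0.23, so the 0.86 rested on them. With the oligodendrocyte list r was 0.53 (permutation p = 0.0314, adjusted p = 0.146) and rho 0.45 (permutation p = 0.0536, adjusted p = 0.172), and r was 0.25 without aged SAHA 1 and young vehicle 7, -0.52 within young vehicle and 0.89 within aged SAHA. Aged SAHA 1 stood 1.14 above the mean of all libraries for the oligodendrocyte markers, and aged SAHA 3 stood 0.13 above it. With the neuron list r was -0.41 (permutation p = 0.0830, adjusted p = 0.233) and rho -0.43 (permutation p = 0.0657, adjusted p = 0.172). That r was -0.05 without aged SAHA 1 and 6, 0.71 within young vehicle and -0.86 within aged SAHA. The 6 relations of miR-26a-5p with marker lists had permutation p of 0.117 or more for r.

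Marker levels by group follow, and their part in the miR-26b-5p values was not tested. Summed levels of the 5 neuron markers were 78192 to 88186 CPM in young vehicle, 79114 to 83856 in aged vehicle and 67094 to 72526 in aged SAHA. That sum, to which miR-9-5p and miR-128-3p contribute most, was lower in aged SAHA without overlap, but the mean log2 CPM of the same 5 markers, which weights them equally, overlapped. Relative to all libraries it was -0.11 to 0.11 in young vehicle, -0.03 to 0.17 in aged vehicle and -0.24 to 0.05 in aged SAHA. In that list miR-128-3p was the 1 member called, lower by 0.44 on the log2 scale with SAHA and by 0.46 in aged SAHA against young vehicle (edgeR adjusted p = 0.00344 and 0.000356). The list's median log2 fold change was -0.11 with SAHA and -0.15 in aged SAHA against young vehicle, so other members were lower without being called. Summed microglia and myeloid markers were 309 to 406 CPM in young vehicle, 369 to 528 in aged vehicle and 356 to 767 in aged SAHA, and summed endothelial and mural markers were 25940 to 65463, 25965 to 53060 and 26651 to 61119 CPM. Summed oligodendrocyte markers were 3122 to 4277, 3831 to 5343 and 3536 to 7728 CPM in the same order of groups, the highest being aged SAHA 1. The groups overlapped for each of these lists. In aged SAHA against young vehicle, miR-142-5p, a marker of blood-derived cells and microglia, and miR-219-2-3p, a marker of oligodendrocytes, rose by 0.49 and 0.61 on the log2 scale (edgeR adjusted p = 0.0165 and 0.00309). Of the 22 markers, no other was called in any comparison: 0 were called with age, 1 with SAHA and 3 in aged SAHA against young vehicle, where 2.16%, 4.32% and 13.9% of all tested miRNAs were called. These shares of the markers are near that background.

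**Figure D5:**
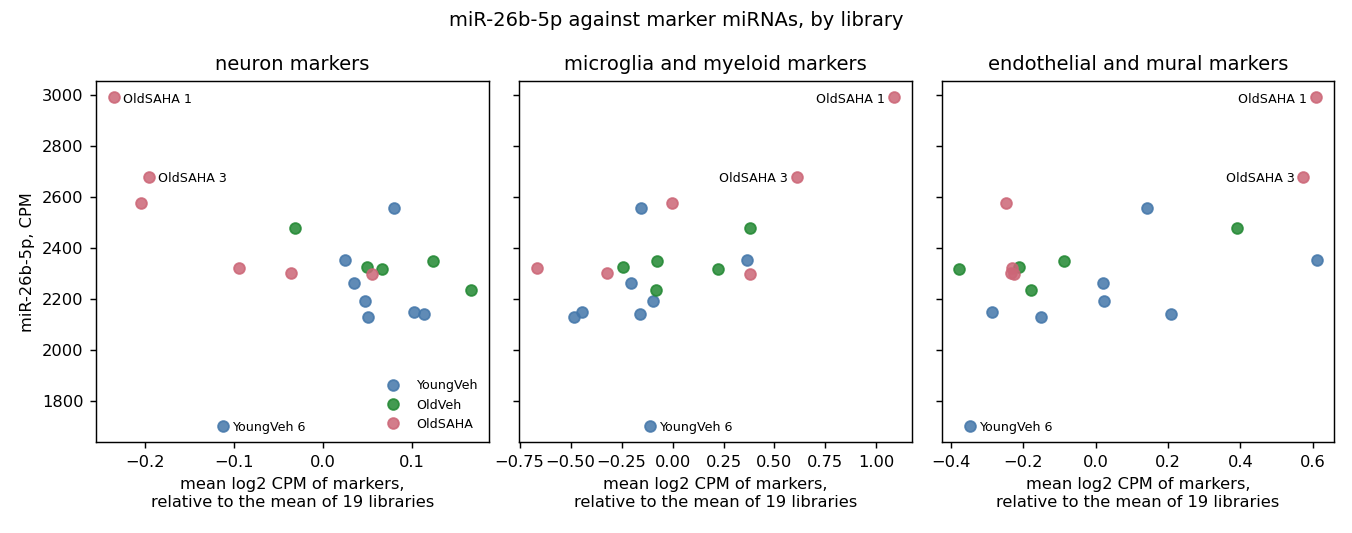
miR-26b-5p in CPM (vertical axis) against the mean log2 CPM of neuron, microglia and myeloid, and endothelial and mural markers, relative to the mean of the 19 libraries (horizontal axes), 1 point per library. OldSAHA 1 and OldSAHA 3 lie at upper right for the latter 2 lists, and YoungVeh 6 lies lowest in all 3 panels.

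Other miRNAs that share reported targets or roles with miR-26 were examined as lists. None of the 8 miRNAs reported to repress Ezh2 was called in any comparison, beside 2.16%, 4.32% and 13.9% of all tested miRNAs, a count too small to set the list apart. Its medians were 0.03, 0.08 and 0.09, and the most abundant of them, let-7c-5p, differed by 0.01 ± 0.07, 0.06 ± 0.08 and 0.07 ± 0.07 across the 3 comparisons. The next most abundant, let-7a-5p, differed by 0.0080 ± 0.06, 0.14 ± 0.07 and 0.15 ± 0.06 (edgeR adjusted p = 0.970, 0.251 and 0.0936).

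Of 13 miRNAs of synaptic plasticity, none was called with age, where 0.196% of tested miRNAs were called higher and 1.96% lower. With SAHA 1.18% were called higher and 3.14% lower, and in aged SAHA against young vehicle 5.3% and 8.64%. In this list miR-9-3p, the lesser arm of the neuronal miR-9, fell by 0.28 ± 0.07 with SAHA and by 0.24 ± 0.06 in aged SAHA against young vehicle (edgeR adjusted p = 0.0176 and 0.0107). No other member was called in those 2 comparisons. miR-384-5p, studied together with miR-26a in long-term potentiation, averaged 648 CPM and differed by 0.40 ± 0.12 with age (edgeR adjusted p = 0.0722), by -0.11 ± 0.13 with SAHA (0.674) and by 0.29 ± 0.11 in aged SAHA against young vehicle (0.0854). The list's medians were 0.0017, -0.07 and -0.07. Of the 12 miRNAs used as references, none was called with age or with SAHA, and miR-24-3p, miR-93-5p and miR-423-3p rose in aged SAHA against young vehicle by 0.26, 0.34 and 0.23 (edgeR adjusted p = 0.0301, 0.00393 and 0.0363), a comparison in which the list's median was 0.12, above the 0.08 of miR-26a-5p and below the 0.21 of miR-26b-5p.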

How the data were processed

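Per the labels' protocols, small RNA libraries were made with TruSeq reagents from total RNA of microdissected CA1 tissue. The deposited values are raw counts, whole numbers for each mature miRNA name in each library, without normalisation by the authors. The submitters' processing notes name CASAVA 1.8.2, cutadapt, STAR, HTSeq and mm10, with no order or settings, and the sources used here do not state the miRNA annotation release. The 4 HTSeq summary lines were 0 in every library and were left out, so the share of unassigned reads is unknown.

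Of 1148 names, 255 had no count. filterByExpr (minimum count 10, minimum total 15) kept 509, leaving 639 untested. After TMM scaling, edgeR 4.0.16 was run in R 4.3.3 (robust quasi-likelihood F test, 1 term per group, all 19 libraries). P-values were adjusted by Benjamini-Hochberg over the 509, and the SE is the log2 fold change divided by the square root of F. The fit was tested on simulated data, where the check that signs were recovered was limited, after its outcome was seen, to changes of 1.5-fold and above. Signs of 1.25-fold changes had fallen short of it in the age comparison. Most miR-26 fold changes are smaller than that. Ratios had 0.5 added to each count, and relations across libraries used 100000 permutations. Reads carry no molecular identifiers, so counting error is a lower limit. No library was a copy of another of its group: the chi-square of counts per degree of freedom lay between 24.7 and 294 over 53 within-group pairs. Pairs from different groups were not checked in this way. Sequences are from RefSeq on GRCm38, the assembly that mm10 names, and host genes from GENCODE M21.

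Groups came from the labels. Every miR-26 name was named with its values. Beyond them the rule named the 3 neighbours in level on each side, the 3 closest by Spearman's rho, and from each list the called and the 2 most abundant members. From these, the text gives those that bear on the family, and miR-384-5p for its known pairing with miR-26a. One further list is not reported here. The miR-26 names and the lists were chosen with earlier results of these data known. Alternatives were scaling by library size alone or by DESeq2 size factors, testing by DESeq2 1.42.0 or by limma-voom with quality weights (limma 3.58.1), dropping the filter or asking for 10 CPM in 5 libraries, fitting 2 groups alone, removing the 2 most abundant miRNAs, removing each library in turn, a block for replicate number, and 5 added to counts in ratios. The removal of both aged SAHA 1 and young vehicle 6 was chosen after seeing the data, from an earlier account of them.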

Additional observations from a re-analysis of the deposited data

Results flagged for a closer look

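Of 27 sets of values within a group that were examined for a library far from the others (Dixon's criterion at 95%), 2 had one. Chance flags about 1 in 20 such sets. miR-26a-5p was 68231 CPM in aged SAHA 3, while the other 5 aged SAHA libraries had 77402 to 81925 CPM. The gap to the nearest library was 0.670 of the group's range, where the critical value is 0.625. As a raw share of counts miR-26a-5p was 7.19% in that library (95% Wilson interval 7.17% to 7.21%), which covers counting error only. The log2 ratio of miR-26a-5p to miR-26b-5p was 5.46 in young vehicle 6, while the other 7 young vehicle libraries had 4.93 to 5.16. Its gap was 0.572 of the range, where the critical value is 0.526. In that library miR-26b-5p made up 0.160% of counts (95% Wilson interval 0.157% to 0.163%).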

How the results depend on the processing

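Apart from leaving out 1 library, 178 values were recomputed under the alternatives: 161 kept their direction and their side of the threshold, 4 became significant and 13 changed sign. Leaving out 1 library in turn gave 507 values, of which 476 kept both, 3 became significant and 28 changed sign. The 4 were all miR-26b-5p in aged SAHA against young vehicle, with log2 fold changes of 0.23 (DESeq2 size factors), 0.25 (library size only), 0.23 (DESeq2) and 0.24 (2 most abundant miRNAs left out, adjusted p = 0.0381), so that 1 name was called in each. Over the 10 alternatives its adjusted p ran from 0.0276 to 0.191, and with 1 library left out from 0.0319 to 0.137, at log2 fold changes of 0.16 to 0.25, with 0 to 1 names called. For age and SAHA 0 of the names tested were called under every alternative and with any 1 library left out. The filter of 10 CPM in 5 libraries left miR-26a-1-3p and miR-26a-2-3p untested. Fits of 2 groups alone left miR-26a-1-3p untested except for age.

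None of the values that changed sign passed the threshold, and the cause was not tested. In aged SAHA against young vehicle miR-26a-2-3p became 0.0057 with DESeq2 size factors, 0.019 with library size only, 0.0057 with DESeq2, 0.016 with only the 2 groups and 0.017 without the 2 most abundant miRNAs, and miR-26b-3p became -0.11 with limma-voom. Without aged SAHA 1 and young vehicle 6, miR-26b-3p became -0.086 there, the log2 ratio of miR-26a-1-3p to miR-26a-2-3p -0.028, and with age the ratio of miR-26b-3p to miR-26b-5p 0.021 and that of the miR-26a 3p strands to miR-26a-5p -0.042. With 1 library left out, aged SAHA against young vehicle ran from -0.14 to 0.10 (miR-26a-2-3p), from -0.087 to 0.091 (miR-26b-3p) and from -0.23 to 0.16 (ratio of miR-26a-1-3p to miR-26a-2-3p). For SAHA it ran from -0.16 to 0.031 (miR-26b-3p) and from -0.095 to 0.0013 (ratio of miR-26a-5p to miR-26b-5p). For age it ran from -0.088 to 0.021 (ratio of miR-26b-3p to miR-26b-5p) and from -0.075 to 0.085 (miR-26a 3p strands to miR-26a-5p). miR-26a-1-3p passed the filter in 17 of the 19 fits that left out a library.

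Over all tested miRNAs, age gave 20 calls with DESeq2, 23 with limma-voom, 19 with only the 2 groups and 18 without both libraries, and 8 to 14 with 1 left out. SAHA gave 39 with DESeq2, 46 with limma-voom and 37 without both libraries, and 11 to 33 with 1 left out. Aged SAHA against young vehicle gave 57 to 81 with 1 left out.

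The replicate numbers showed no clear pairing of the samples. Deviations of 16 same-numbered pairs correlated at -0.317 to 0.314 (4 above 0.1), and the best match in another group had the same number in 6 of 32 cases. Such a check could miss a batch shared by same-numbered samples. With the number as a block, age, SAHA and aged SAHA against young vehicle gave 8, 15 and 58 calls, none of miR-26. Under that block miR-26a-1-3p and miR-26a-2-3p became 0.016 and 0.025 in aged SAHA against young vehicle, and the ratio of miR-26b-3p to miR-26b-5p became 0.043 with age.

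Depth limits the 3p strands: with 2 to 14 counts of miR-26a-1-3p per library, its differences were not detectable at this depth unless large.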
